A study of Mus musculus with 10 samples.

Results

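The mammalian respiratory chain is built from 2 genomes, and its transcripts were followed here in the cerebral cortex of mice that lack the clock factor BMAL1 in astrocytes. The members were all rows of the deposited table whose symbol marks a mitochondrial-encoded RNA or a nuclear-encoded subunit of complexes I to V, with Ndufa4l2 left out. This gave 94 of 12575 genes. Of these, 16 are transcribed from mitochondrial DNA (13 messenger RNAs, the ribosomal RNAs mt-Rnr1 and mt-Rnr2, and the transfer RNA mt-Tp) and 78 from the nucleus (35 in complex I, 4 in complex II, 8 in complex III, 13 in complex IV, 16 in complex V, and the further ATP synthase symbols Atp5s and Atp5l2-ps).

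Cortex was taken from Aldh1l1-CreERT2;Bmal1 fl/fl mice, termed BMAL1 aKO (5 libraries), and from Cre-;Bmal1 fl/fl littermates (5 libraries). The mice were C57BL/6 of both sexes, their age was 4 months per the labels, and tamoxifen was given to both genotypes. The floxed Bmal1 alleles are therefore shared by the groups, and only the inducible Cre recombinase, which the Aldh1l1 promoter directs to astrocytes, differs. The tissue holds every cell type of the cortex, so an astrocyte transcript is diluted by neurons and other glia, and fewer cells of a type cannot be told apart from less RNA per cell.

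Complexes I to IV pass electrons from NADH and succinate to oxygen. Complexes I, III and IV pump protons across the inner mitochondrial membrane, and complex V, the ATP synthase, uses the proton gradient to make ATP. Mitochondrial DNA encodes catalytic or proton-moving subunits of complexes I, III, IV and V, transcribed as long precursors that are cut into single RNAs, while complex II is wholly nuclear-encoded. Nuclear-encoded subunits comprise the remaining catalytic core and a larger set of small accessory subunits that surround it.

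Reads of some mitochondrial genes cannot be assigned to one genome. A stretch of mouse chromosome 1 holds unprocessed pseudogenes copied from mitochondrial DNA, and 7 of them are rows of the table. On GRCm38 these lie on the minus strand between Gm28439 (chr1:24611535-24612410) and Gm29216 (chr1:24615706-24616197). Gm10925, Gm28661, Gm28437 and Gm10222 match mt-Atp6, mt-Co2, mt-Co3 and mt-Nd4l over at least 98% of the gene with 100% identity, and Gm28438 matches mt-Nd3 with 99.7% identity. Gm28439 covers 63.6% of mt-Nd4 and Gm29216 covers 31.3% of mt-Co1. The opening of mt-Nd3 (chrM:9459-9578) and of its copy (chr1:24613000-24613119, minus strand) is shown because a read from here fits both places unless it spans the single differing base, in capitals, which is T3C counted from the first base of the gene.

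mt-Nd3: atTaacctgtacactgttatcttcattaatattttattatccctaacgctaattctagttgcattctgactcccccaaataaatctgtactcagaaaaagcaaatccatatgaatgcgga
Gm28438: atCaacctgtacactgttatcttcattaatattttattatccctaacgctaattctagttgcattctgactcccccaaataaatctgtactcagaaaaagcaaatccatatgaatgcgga

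In contrast, the closest annotated nuclear match of mt-Cytb is Gm11410 on chromosome 4. It differs at 7 of the 120 bases shown (capitals), from base 2 of the gene (chrM:14146-14265 and chr4:80003990-80004109). Most reads of mt-Cytb can therefore be told from that copy.

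mt-Cytb: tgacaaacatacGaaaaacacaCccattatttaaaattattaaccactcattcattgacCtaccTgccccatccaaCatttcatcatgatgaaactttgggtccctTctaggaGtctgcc
Gm11410: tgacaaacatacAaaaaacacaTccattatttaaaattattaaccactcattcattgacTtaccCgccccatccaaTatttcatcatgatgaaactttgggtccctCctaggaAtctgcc

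Per kilobase of exon, the 5 messenger RNAs with a whole copy on chromosome 1 were at 100.5 (mt-Nd3) to 478 (mt-Co2) CPM, whereas the other 8 had a median of 14871 CPM and reached 23341 CPM in mt-Cytb. mt-Atp8 was the lowest of these 8 at 69.7 CPM per kilobase. It lies between mt-Co2 and mt-Atp6 on mitochondrial DNA (chrM:7766-7969), and both of these have whole copies in the chromosome 1 stretch. Its match there was 43 bases within Gm10925, but only annotated transcripts were searched, so an unannotated copy of mt-Atp8 would be missed. Gm28661 (chr1:24614885-24615565) and Gm10925 (chr1:24613974-24614651) lie as far apart as the matched parts of mt-Co2 and mt-Atp6 do. The stretch thus has room for a whole copy of mt-Atp8. This gene is counted below among the 8 without a whole copy, which means without an annotated one. Across the 10 libraries the level of a copy followed its mitochondrial gene with r = 0.997 for mt-Atp6 and Gm10925, 0.980 for mt-Co2 and Gm28661, 0.968 for mt-Nd4l and Gm10222, 0.963 for mt-Co3 and Gm28437, and 0.702 for mt-Nd3 and Gm28438. For the partial copies it was 0.692 (mt-Nd4 and Gm28439) and 0.621 (mt-Co1 and Gm29216). These are a description over libraries that share their depth and total. Levels of mt-Atp6, mt-Co2, mt-Co3, mt-Nd3 and mt-Nd4l are for this reason uncertain, and that of mt-Atp8 may be. Those of mt-Nd4 and mt-Co1 are uncertain over the 63.6% and 31.3% that the partial copies cover, and both are among the 8.

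The libraries held 21844770 to 48295715 assigned reads. Their weights in the fit, which limma sets from how far a library lies from its group, ran from 0.181 in Cre- replicate 3 to 7.19 in Cre- replicate 1, and that last library carried 72.9% of the Cre- weight. Fold changes below are weighted unless called unweighted, and unweighted values are given beside many of them. Cre- replicate 3 stood apart from the other libraries, with Snap25, a synaptic gene, at 1890 CPM against 2710 to 3943 CPM and the striatal gene Ppp1r1b at 323 CPM against 45.7 to 148 CPM (genes chosen after their values were seen). Arntl, which encodes BMAL1, was at 34.2 ± 2.25 CPM in Cre- mice and 34.5 ± 2.93 CPM in BMAL1 aKO (SD, n = 5 each), a count over the whole gene that does not check deletion of the floxed part in astrocytes. Nr1d1, a clock gene that BMAL1 activates, was at 94.8 to 145 CPM in Cre- mice and 70.7 to 92.3 CPM in BMAL1 aKO, with no overlap (log2 fold change -0.35 ± 0.09 SE, limma adjusted p = 0.154).

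RNA from mitochondrial DNA made up a large and variable part of each library. Its share of reads in Cre- cortex was 13.4, 19.9, 6.19, 9.29 and 15.5%, and in BMAL1 aKO cortex 16.3, 14.5, 14.6, 18.0 and 17.5%. The BMAL1 aKO libraries lay close together, and all of them fell inside the range of the Cre- libraries. The mean was 12.8% ± 5.33 in Cre- and 16.2% ± 1.60 in BMAL1 aKO (SD, n = 5 each), a difference of 3.32 percentage points that is smaller than the SD of the Cre- group. Without Cre- replicate 3, whose share was the lowest, the difference was 1.65 points, and without Cre- replicate 2, whose share was the highest, it was 5.08 points. Gm42418, a gene that overlaps ribosomal RNA sequence and was chosen after its values were seen, was at 2077 and 1372 CPM in Cre- replicates 3 and 4, which had the lowest mitochondrial shares, and at 376 to 928 CPM in the other 8 libraries, and its part in the share was not tested. Most of this RNA was messenger RNA (5.59 to 18.0% of reads in Cre- and 13.1 to 16.2% in BMAL1 aKO), and the ribosomal RNAs mt-Rnr1 and mt-Rnr2 made up 0.599 to 1.90% and 1.252 to 1.80%.

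The nuclear-encoded members together took under 1% of the reads. Their summed level in Cre- cortex was 7429.7, 8378, 7147, 6745 and 7349 CPM, and in BMAL1 aKO cortex 7500.4, 7534, 8014, 8812 and 9233 CPM. The BMAL1 aKO mean was 1.11 times that of Cre- (8219 ± 776 against 7410 ± 603 CPM, SD, n = 5 each), and the ratio ran from 1.07 to 1.15 when single libraries were left out. Only Cre- replicate 2 reached into the BMAL1 aKO range.

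**Figure D1:**
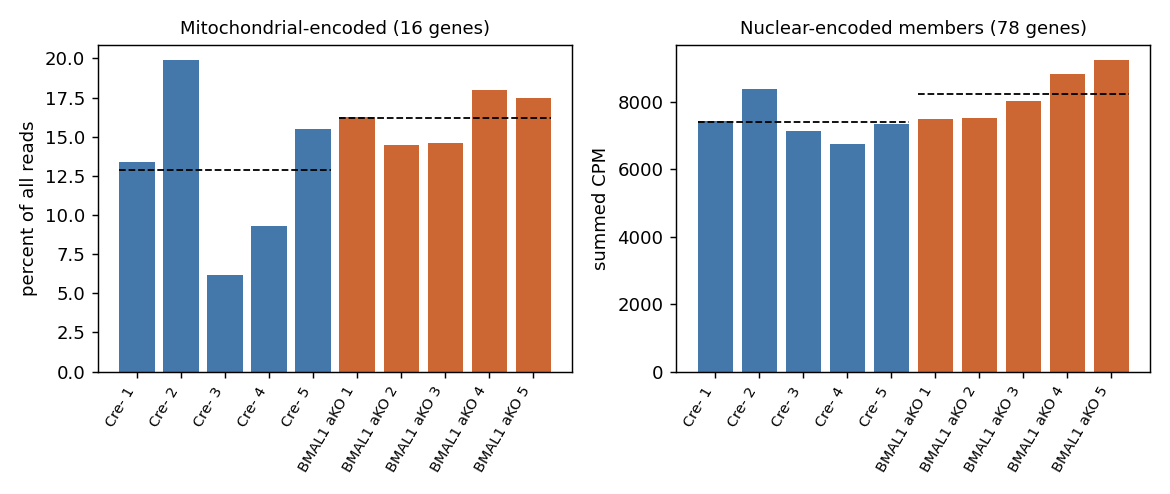
Share of reads from mitochondrial DNA (percent) and summed level of the 78 nuclear-encoded members (CPM) in each of the 10 libraries. There is 1 bar per library, with a dashed line at each group mean. The mitochondrial share spans 6.19 to 19.9% in Cre- and 14.5 to 18.0% in BMAL1 aKO, and the nuclear sum has means of 7410 and 8219 CPM.

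No member passed the test. In the limma fit on log2(CPM + 0.5) with library weights, 42 of the 12573 genes tested were called at an adjusted p of 0.1 or less (0.334%), 36 higher and 6 lower in BMAL1 aKO, and 0 of the 94 members were among them. With voomWithQualityWeights on reads recovered from the CPM, 29 genes (0.231%) and 0 members were called. At an unadjusted p below 0.05, 39 members were higher and 1 was lower, where 6.82% of all genes were higher and 10.0% lower. Without library weights these counts were 12 and 1, where 2.51% of all genes were higher and 2.27% lower. Of the members, 76 of 94 had a positive log2 fold change, against 4828 of 12573 genes, and the median was 0.24 against -0.04 (unweighted 0.26 against -0.05).

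The calls depended on which libraries entered. Without BMAL1 aKO replicate 3, 844 genes (6.71%) passed, 339 of them higher (2.70%) and 505 lower (4.02%), and 21 members were among them, 20 higher and 1 lower. The higher members were mt-Co2 (log2 fold change 0.65) and mt-Nd3 (0.66) of the mitochondrial genome and 18 nuclear genes, of which Atp5mpl (0.76, limma adjusted p = 0.0805), Cox6a1 (0.58, adjusted p = 0.0750), Atp5g3 (0.51, adjusted p = 0.0995) and Cox8a (0.38, adjusted p = 0.0758) are among those named below. By complex these 18 were 8 of complex I, 4 of complex III (Uqcrq, Uqcr10, Uqcr11 and Uqcrh, all accessory), 3 of complex IV and 3 of complex V, and the lower member was Ndufs1 (-0.20, adjusted p = 0.0877). With the same library left out and no weights, 4 genes and 0 members passed. Without BMAL1 aKO replicate 1, 23 genes (0.183%) were called and Cox8a was the single member (0.44, adjusted p = 0.0196), and without BMAL1 aKO replicate 2, 52 genes (0.414%) were called with Ndufv3, an accessory subunit of complex I chosen after its values were seen, as the single member (0.51, adjusted p = 0.0810). Without Cre- replicate 1, 1 gene and 0 members were called.

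**Figure D2:**
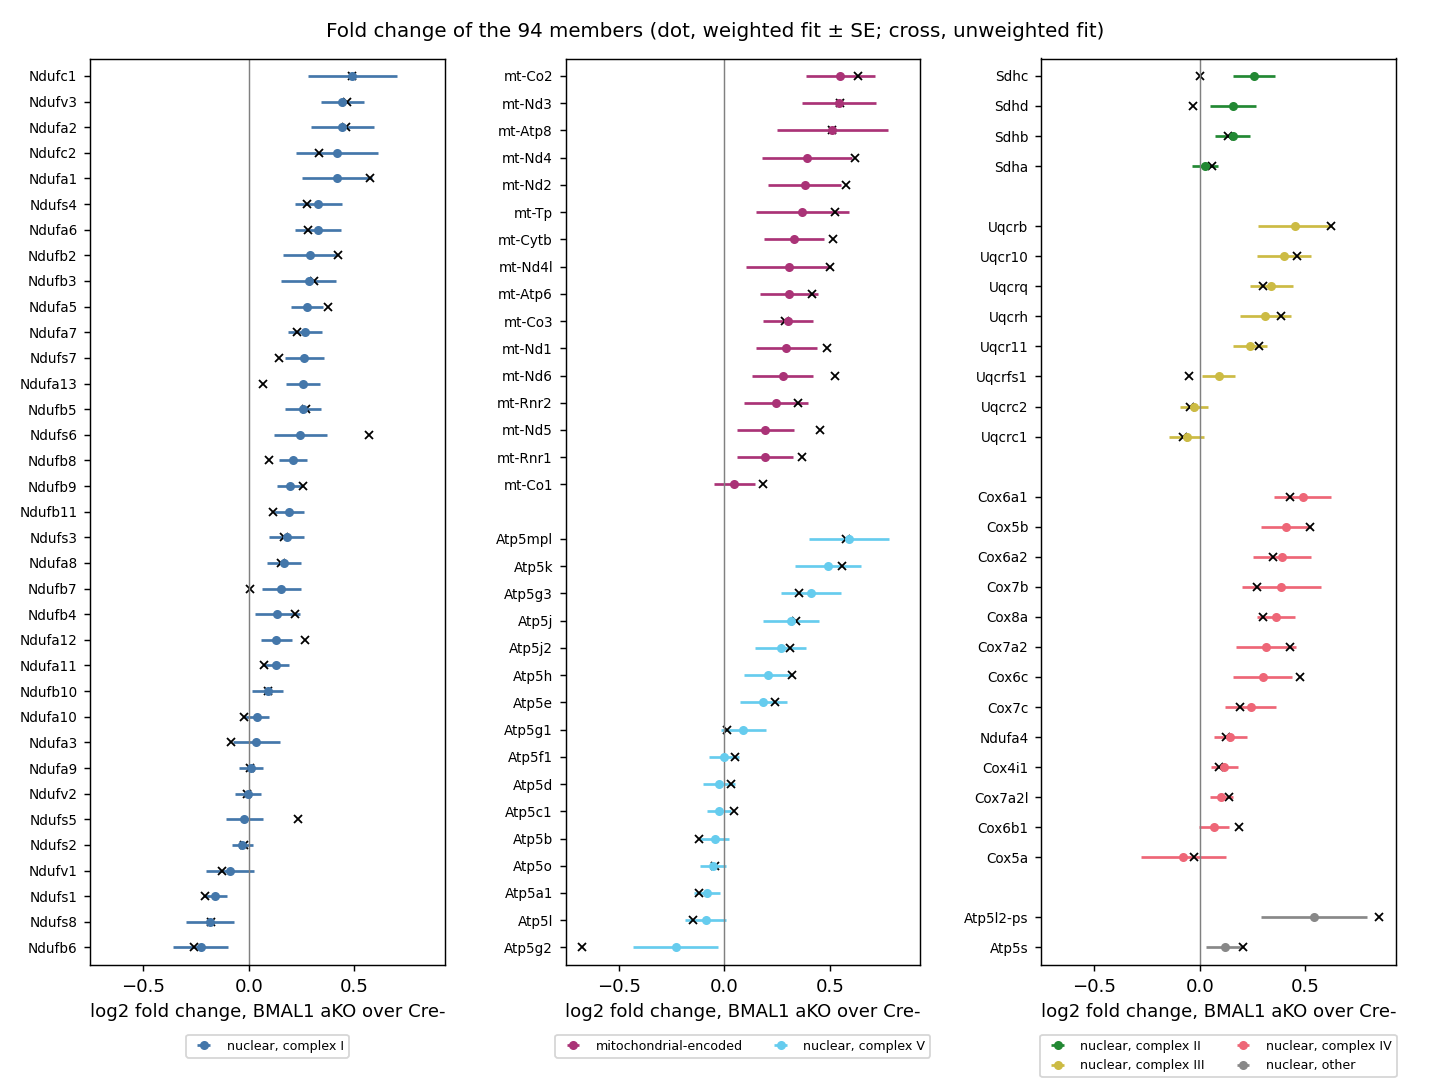
Log2 fold change (BMAL1 aKO over Cre-) of the 94 members, grouped by complex, with dots and bars for the weighted limma value ± SE and crosses for the unweighted value. All 16 mitochondrial-encoded members lie above 0, as do 60 of the 78 nuclear-encoded members, and none passes an adjusted p of 0.1.

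All 16 mitochondrial-encoded RNAs had a positive fold change, with a median of 0.31 (unweighted 0.51, with TMM scaling 0.35, with sex read from Xist as a covariate 0.18). With single libraries left out the median ran from 0.22 (without Cre- replicate 4) to 0.46 (without Cre- replicate 5). They are read from shared precursors, and their levels moved together over libraries, so that they are not 16 separate observations. mt-Cytb, the cytochrome b subunit of complex III (chrM:14145-15288, plus strand), was at 23836, 36119, 11200.1, 15960.2 and 27672 CPM in Cre- mice and at 32832, 26163, 27561, 33043 and 32639.7 CPM in BMAL1 aKO. Cre- replicate 3 was lowest and Cre- replicate 2 highest of the 10, and the groups overlapped (0.33 ± 0.14, unweighted 0.52, limma adjusted p = 0.273, exact permutation p = 0.159).

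mt-Co1, the catalytic subunit of complex IV, had the smallest fold change of the 16 at 0.05 ± 0.10 (unweighted 0.19, limma adjusted p = 0.827). It was at 27775, 30003, 16888, 22955 and 30078 CPM in Cre- mice and at 25758, 29816, 28248, 30274 and 28191 CPM in BMAL1 aKO. All but Cre- replicates 3 and 4 lay in one narrow band. mt-Co2, which carries the copper site that receives electrons from cytochrome c, had the largest at 0.55 ± 0.16 (adjusted p = 0.182), with 251.5, 477, 154, 171 and 272 CPM in Cre- mice and 509.5, 265, 332, 461 and 374 CPM in BMAL1 aKO, and its reads are shared with Gm28661.

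The 7 complex I subunits of the mitochondrial genome form the proton-pumping membrane arm. Their log2 fold changes were 0.54 for mt-Nd3 (unweighted 0.55), 0.39 for mt-Nd4 (0.62), 0.38 for mt-Nd2 (0.58), 0.31 for mt-Nd4l (0.50), 0.30 for mt-Nd1 (0.49), 0.28 for mt-Nd6 (0.52) and 0.20 for mt-Nd5 (0.45), with adjusted p from 0.183 to 0.458 in limma. mt-Nd6 is the one messenger RNA annotated on the minus strand (chrM:13552-14070). At 1846 to 6690.4 CPM in Cre- mice and 4834 to 6141 CPM in BMAL1 aKO its groups overlapped as those of the other genes did. The kit does not mark strand, and mt-Nd5 overlaps mt-Nd6 on the other strand. Its reads therefore cannot be assigned to minus-strand RNA alone. The ATP synthase subunits mt-Atp6 and mt-Atp8 had log2 fold changes of 0.30 and 0.51, and mt-Atp8 ran from 0.22 (without Cre- replicate 1) to 0.71 (without BMAL1 aKO replicate 5) with single libraries left out. The complex IV subunit mt-Co3 had 0.30, and the ribosomal RNAs mt-Rnr1 and mt-Rnr2 0.20 and 0.25 (unweighted 0.37 and 0.35). The medians of messenger RNAs with and without a whole copy on chromosome 1 were both 0.31.

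**Figure D3:**
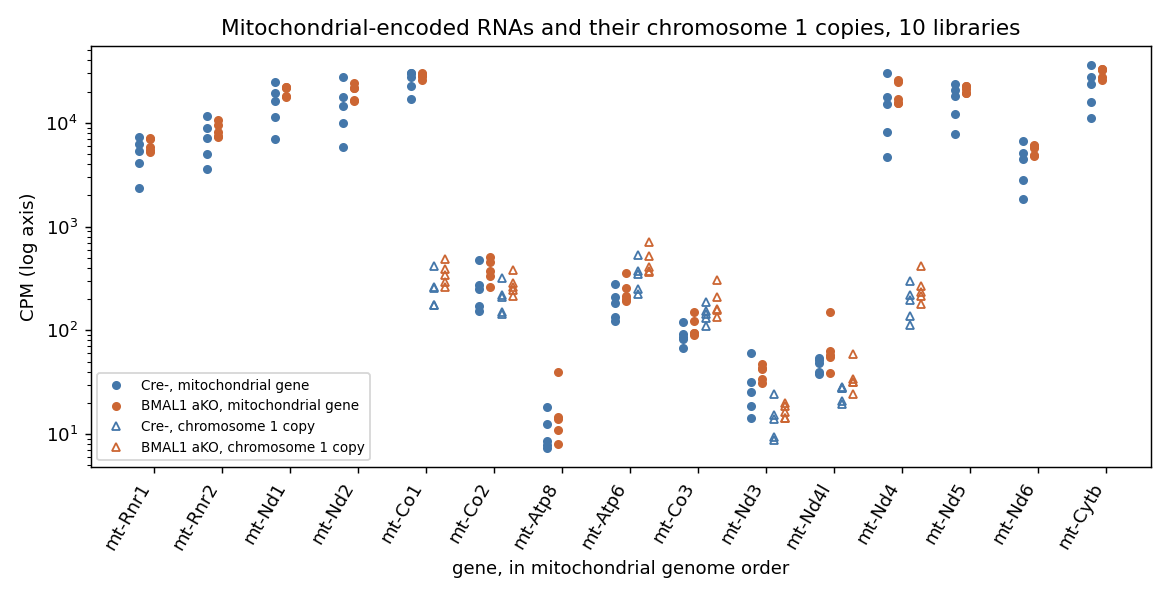
Level (CPM, log axis) of the 15 mitochondrial messenger and ribosomal RNAs in genome order, 1 dot per library coloured by group, with triangles for the chromosome 1 copies. Reads of the 5 genes with a whole copy, and those of mt-Nd4 and mt-Co1 within their partial copies, cannot be told from the copies. Their heights are uncertain, as that of mt-Atp8 may be, and the groups overlap for every gene.

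Among nuclear-encoded members the median log2 fold change was 0.19 with and without weights. By complex it was 0.19 in complex I (28 of 35 positive), 0.16 in complex II (4 of 4), 0.28 in complex III (6 of 8), 0.30 in complex IV (12 of 13) and 0.04 in complex V (8 of 16). The unweighted medians were 0.17, 0.03, 0.29, 0.27 and 0.05, so that the value of complex II rests on the weights and the order of III and IV turns without them. Summed CPM gave the same ranking at the top, with BMAL1 aKO to Cre- ratios of 1.22 in complex IV, 1.15 in III, 1.11 in I, 1.04 in II and 1.03 in V.

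Within complexes I and III and within the ATP synthase the catalytic core and the small subunits around it had different medians. In complex I the 7 nuclear core subunits had a median of -0.03 (2 of 7 positive) and the 28 accessory subunits 0.23 (26 of 28). In complex III the 3 core subunits had a median of -0.03 and the 5 accessory subunits 0.34, all positive. In complex V the 5 subunits of the F1 head had a median of -0.02 and the 11 of the membrane part and stalks 0.21. Unweighted medians were -0.02 against 0.25, -0.05 against 0.39, and 0.03 against 0.31.

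Complex IV, cytochrome c oxidase, had the highest weighted median of the 5 and the second highest, after complex III, without weights. Its summed nuclear level was 1717, 2130.4, 1453, 1383 and 1762 CPM in Cre- mice and 1700.2, 1858, 1990.1, 2329 and 2419 CPM in BMAL1 aKO. Cre- replicate 2 lay among the BMAL1 aKO libraries and BMAL1 aKO replicate 1 among the Cre- libraries. Cox6a1, a small subunit with the highest level per kilobase of all nuclear members (509.7 CPM), was at 242, 355, 221, 176 and 246 CPM in Cre- mice and at 239, 276, 319, 389 and 447 CPM in BMAL1 aKO (0.49 ± 0.13, limma adjusted p = 0.175). Its muscle-type isoform Cox6a2 was at 11.1 CPM per kilobase, with a log2 fold change of 0.39.

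Cox8a, another small subunit, was at 173, 189, 179.6, 159.7 and 172 CPM in Cre- mice and at 151, 229, 226, 228 and 256 CPM in BMAL1 aKO. BMAL1 aKO replicate 1 was the lowest of the 10 libraries, and the other BMAL1 aKO libraries lay above every Cre- library (0.36 ± 0.09, limma adjusted p = 0.148, exact permutation p = 0.0476). Cox7a2l, a subunit also found where complexes III and IV join, was at 72.9 to 82.9 CPM in Cre- mice and 84.6 to 91.4 CPM in BMAL1 aKO, without overlap (0.10 ± 0.05, limma adjusted p = 0.343). Cox4i1, the regulatory subunit, had a log2 fold change of 0.12, Cox7a2 0.31, and Cox6b1 0.07 with weights and 0.19 without. Cox5a, a partner of Cox4i1, was at 10.6 to 25.2 CPM in Cre- mice and 11.5 to 38.1 CPM in BMAL1 aKO, and the sign of its fold change depended on the setting.

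Groups that do not overlap were seen for 3 members, 2 higher and 1 lower in BMAL1 aKO, where 0.620% of all genes were higher and 0.382% lower without overlap. Besides Cox7a2l these were complex I genes, chosen after their values were seen. Ndufb9, an accessory subunit of the membrane arm, was at 133, 131, 116, 112 and 137 CPM in Cre- mice and at 141, 142, 146, 164 and 159 CPM in BMAL1 aKO (0.20 ± 0.06, limma adjusted p = 0.183). Ndufs1, the largest core subunit, which holds iron-sulfur clusters, was at 104, 116, 104, 102 and 108 CPM in Cre- mice and at 86.2, 90.2, 101.6, 92.6 and 92.1 CPM in BMAL1 aKO (-0.16 ± 0.06, adjusted p = 0.208). Each of the 3 had an exact permutation p of 0.00794, the smallest that splits of 5 against 5 libraries can give, and 0.792 after adjustment over all genes tested. Ndufv3 and Cox5b, also chosen after their values were seen, show the more usual picture of a shift with overlap. Ndufv3, which sits beside the NADH-oxidising core of complex I, was at 62.7, 82.2, 52.1, 45.9 and 62.2 CPM in Cre- mice and at 72.1, 71.6, 79.7, 93.1 and 102 CPM in BMAL1 aKO, where Cre- replicate 2 lay among the BMAL1 aKO libraries (0.44 ± 0.10, limma adjusted p = 0.138, the smallest of the members). Cox5b, a zinc-binding subunit of complex IV, was at 79.6 to 171 CPM and 134 to 190.1 CPM (0.41 ± 0.12, adjusted p = 0.176). Ndufb6 had the lowest log2 fold change of complex I at -0.23 ± 0.13 (limma adjusted p = 0.376).

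Complex II, succinate dehydrogenase, joins the citrate cycle to the chain. Sdha, its flavin subunit, was at 312 to 383 CPM in Cre- mice and 335 to 403 CPM in BMAL1 aKO (0.03 ± 0.06, unweighted 0.06), and the iron-sulfur subunit Sdhb had a log2 fold change of 0.16. The membrane anchors Sdhc and Sdhd had 0.26 and 0.16 with weights and 0.00 and -0.03 without. In complex III, Uqcrb, a subunit beside the ubiquinone site, was at 40.1 to 159 CPM in Cre- mice and 88.8 to 164 CPM in BMAL1 aKO (0.45 ± 0.17, limma adjusted p = 0.23), while the core protein gene Uqcrc1 was at 128 to 205 CPM and 133 to 167 CPM (-0.06 ± 0.08).

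In the ATP synthase the catalytic genes Atp5b and Atp5a1 had log2 fold changes of -0.04 and -0.08 (unweighted -0.12 for both). Atp5b was at 458 to 696 CPM in Cre- mice and 475 to 543 CPM in BMAL1 aKO, and its sign turned with TMM scaling. Atp5mpl, a small membrane subunit, had the largest fold change of the members at 0.59 ± 0.19 (limma adjusted p = 0.183), with 47.5, 90.1, 33.0, 29.9 and 48.9 CPM in Cre- mice and 54.5, 48.5, 62.0, 94.4 and 101 CPM in BMAL1 aKO. The rotor ring is made of subunit c, which 3 genes encode as the same mature protein. Atp5g3 was at 208 CPM per kilobase, against 16.7 for Atp5g2 and 14.1 for Atp5g1, and their log2 fold changes were 0.41, -0.23 and 0.09 (unweighted 0.35, -0.68 and 0.01). Atp5g2 was at 8.74, 5.72, 38.5, 20.7 and 8.67 CPM in Cre- mice and 6.83 to 10.4 CPM in BMAL1 aKO, so that Cre- replicates 3 and 4 were the only libraries above that range.

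The fold changes of nuclear members went with the length of the coding sequence. Length is that of the longest annotated coding sequence of a gene, so a gene with a shorter form can enter as long. The 44 members under 450 coding bases had a median of 0.28 (39 positive), the 21 of 450 to under 900 bases 0.16, and the 11 of 900 bases or more -0.03 (4 positive). All genes tested showed the same order, with 0.12 in the 691 shortest, 0.02 in 2196 and -0.07 in the 9123 longest. Spearman's rho between length and fold change was -0.59 over 76 nuclear members and -0.33 over 12010 genes (-0.62 and -0.31 unweighted), across genes, which are not independent replicates. Accessory subunits are mostly short and core subunits long, so role and length cannot be told apart here.

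**Figure D4:**
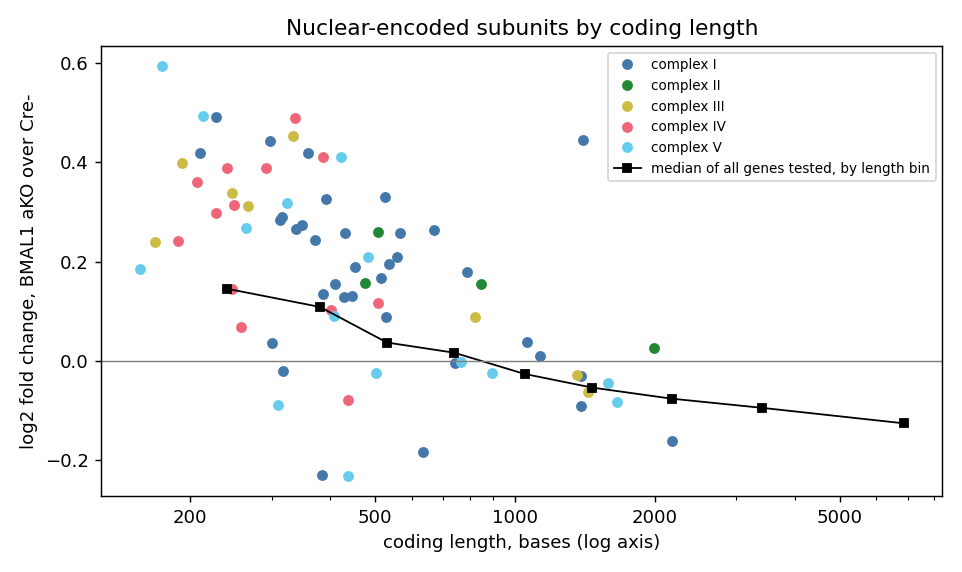
Log2 fold change (BMAL1 aKO over Cre-) of the nuclear-encoded subunits against coding length in bases, with a black line for the median of all genes in each length bin. Members under 450 bases have a median of 0.28, above the all-gene median of 0.12, and the 11 of 900 bases or more have a median of -0.03, with Ndufv3 at 0.44 and Ndufs1 at -0.16 farthest from it. Length is that of the longest annotated form, which is 1404 bases for Ndufv3.

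The difference between the median of mitochondrial messenger RNAs and that of nuclear-encoded members was 0.12 with weights and 0.32 without. Between libraries of a group, the unweighted difference of the mean log2 levels had an SD of 0.39. Across the 10 libraries the mean log2 level of the 8 mitochondrial messenger RNAs without a whole copy followed that of the nuclear subunits with r = 0.70 and rho = 0.76, with r = 0.59 within groups and 0.48 without the 2 libraries farthest from the median. Depth and total are shared by these points, so the values are descriptions. By complex r was 0.84 for IV, 0.81 for III, 0.69 for I, 0.43 for V and 0.24 for II. After TMM scaling these were 0.90, 0.89, 0.84, 0.74 and 0.57. Without the 2 farthest libraries on CPM they were 0.57, 0.58, 0.46, 0.26 and 0.60. The place of complex II thus rests on those 2 libraries, and III and IV changed places narrowly, while I stayed above V. With all libraries r was 0.80 for subunits under 450 coding bases and -0.87 for those of 900 bases or more. After TMM scaling it was 0.87 and 0.49, so that the sign for long subunits turned with the scaling. Among nuclear members, complexes I, III, IV and V had r of 0.848 to 0.997 with each other. Complex II had r of 0.854 with V, 0.730 with I, 0.683 with III and 0.639 with IV, the last falling to 0.382 without the 2 libraries farthest from the median. Single nuclear members had a median r of 0.56 with the mitochondrial mean, against -0.42 for all genes (0.74 and -0.00 after TMM scaling). Length went with this r over all genes too. Its median was 0.35 for the 691 genes under 450 coding bases and -0.55 for the 9123 of 900 or more (0.62 and -0.18 after TMM scaling). Nuclear members of these lengths had medians of 0.73 and -0.67 (0.80 and 0.33 after TMM scaling). On CPM as deposited the most negative members were Atp5g2 (-0.98), Atp5b (-0.97), Atp5a1 (-0.95) and Uqcrc1 (-0.90). These were lowest in CPM where the mitochondrial share was high. Each mitochondrial messenger RNA followed the mean of the others with a median r of 0.95 (0.60 to 0.98).

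**Figure D5:**
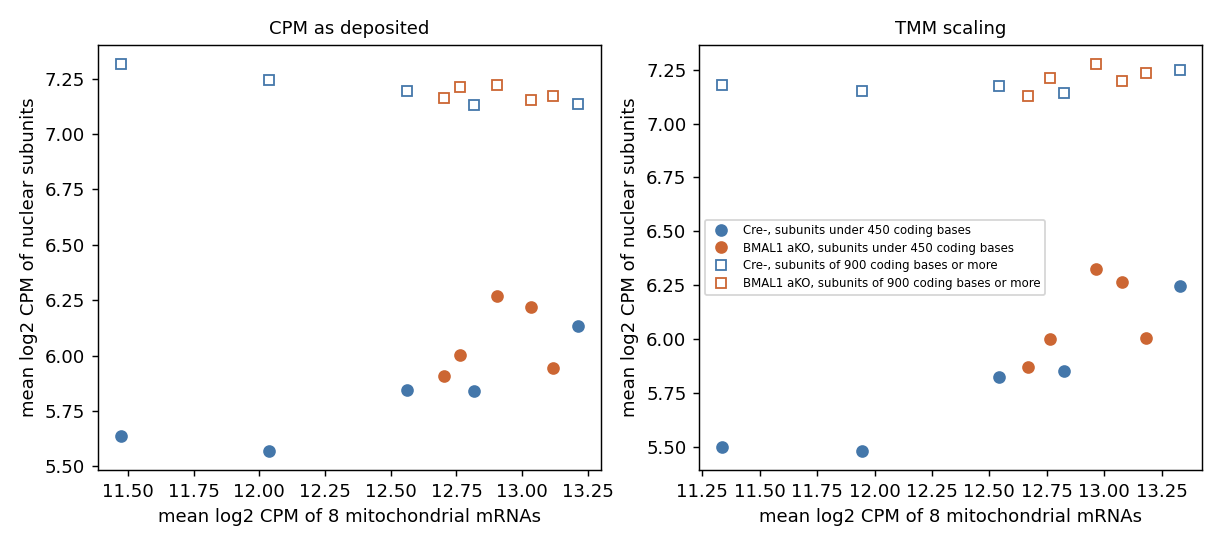
Mean log2 level of the 8 mitochondrial messenger RNAs without a whole copy (x axis, log2 CPM) against that of nuclear subunits under 450 and of 900 or more coding bases (y axis, log2 CPM), 1 point per library, for CPM as deposited and after TMM scaling. For short subunits r is 0.80 and 0.87, and for long ones -0.87 and 0.49.

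The promoters of nuclear members were read for motifs of factors known to bind respiratory genes. RefSeq (GRCm38.p6) gave 250 bases before to 50 after the start of 64 of the 78. On either strand, the NRF-1 motif (GCGCA, any base, GCGC) was in 26.6% of them, against 11.4% of the 9727 table genes with a promoter, and the ETS motif CCGGAAG in 25% against 19.5%. The YY1 motif AAGATGGCG was in 10.9% against 3.62%. The E-box CACGTG, the element that BMAL1 and CLOCK bind, was in 9.38% (Atp5f1, Atp5g1, Atp5g3, Atp5l, Ndufa7 and Ndufv1) against 11.8%. No motif contains another, but their ends can share letters, as ETS ends in the AAG with which YY1 starts. The median fold change with and without was 0.16 and 0.18 for NRF-1, 0.18 and 0.16 for ETS, 0.27 and 0.16 for YY1, and 0.04 and 0.18 for the E-box, over 6 genes in the last. A match is a run of letters and not a shown site. Promoters of 3 named members with fold changes above the nuclear median are given with their motifs in capitals. Not shown is that of Atp5l, which holds an E-box and ETS matches and had a log2 fold change of -0.09. Cox6a1 (chr5:115348909-115349208, minus strand) holds NRF-1 and ETS matches, Cox8a (chr19:7217567-7217866, minus strand) ETS matches, and Atp5g3 (chr2:73911277-73911576, minus strand) an E-box and an NRF-1 match.

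Cox6a1: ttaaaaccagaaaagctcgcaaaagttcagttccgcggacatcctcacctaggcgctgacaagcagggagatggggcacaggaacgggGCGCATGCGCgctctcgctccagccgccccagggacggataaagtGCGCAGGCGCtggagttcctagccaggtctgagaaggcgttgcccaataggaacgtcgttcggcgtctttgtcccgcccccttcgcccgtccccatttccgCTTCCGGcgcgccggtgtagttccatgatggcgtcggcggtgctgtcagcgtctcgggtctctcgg
Cox8a: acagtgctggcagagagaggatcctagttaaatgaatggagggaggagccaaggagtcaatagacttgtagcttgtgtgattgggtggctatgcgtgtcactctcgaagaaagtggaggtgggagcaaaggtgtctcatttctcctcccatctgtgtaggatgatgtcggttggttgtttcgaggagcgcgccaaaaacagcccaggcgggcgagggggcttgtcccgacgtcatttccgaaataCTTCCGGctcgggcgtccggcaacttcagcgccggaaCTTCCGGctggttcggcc
Atp5g3: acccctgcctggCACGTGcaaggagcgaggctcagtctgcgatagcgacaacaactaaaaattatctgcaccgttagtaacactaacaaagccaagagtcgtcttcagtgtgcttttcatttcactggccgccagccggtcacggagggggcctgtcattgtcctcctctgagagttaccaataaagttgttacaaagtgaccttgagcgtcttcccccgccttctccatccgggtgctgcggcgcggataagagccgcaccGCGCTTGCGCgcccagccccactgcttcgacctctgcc

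Other genes of the pathway were read in the same fit, and none was called. Of 41 assembly factors in the table, 21 had a positive fold change (median 0.01), with Sdhaf1, which inserts iron-sulfur clusters into Sdhb, at 0.36 (limma adjusted p = 0.216). Of 23 genes that copy, transcribe or process mitochondrial nucleic acid 13 were positive (median 0.01), with the transcription factor Tfb2m at -0.25 (adjusted p = 0.183). Of 10 nuclear regulators of respiratory genes 1 was positive (median -0.13), with the receptor Esrrg at -0.25 (adjusted p = 0.281). Of 16 citrate cycle genes 7 were positive (median -0.01), with Idh3a, a subunit of isocitrate dehydrogenase, at -0.22 (adjusted p = 0.198). Of 21 electron carrier and import genes 14 were positive (median 0.04), with the ubiquinone gene Coq4 at 0.31 (adjusted p = 0.196). Of 12 clock genes 2 were positive (median -0.21).

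Cell type markers and RNA make-up are given beside these values. The summed level of 10 neuronal markers was 8267 to 9761 CPM in Cre- mice and 8442 to 9848 CPM in BMAL1 aKO, of 10 astrocyte markers 5648 to 7149 and 6819 to 8403 CPM, of 10 oligodendrocyte markers 3655 to 6467 and 4145 to 5937 CPM, and of 8 striatal markers 346 to 1575 and 599 to 957 CPM. Astrocyte markers had 7 of 10 positive fold changes and 1 called higher. Oligodendrocyte markers had 10 of 10, microglial markers 9 of 10 and endothelial markers 8 of 10, with no call in these 3 lists. Over all genes 0.334% were called, and the share that was positive is given above. Neuronal markers are given as sums only, without a count by sign. Their median sum was lower in BMAL1 aKO, at 9625 CPM in Cre- mice and 8993 CPM in BMAL1 aKO. For astrocyte markers it was 6479 and 7107 CPM. Summed red blood cell markers were at 2.88 to 30.5 and 5.71 to 103 CPM, and choroid plexus markers at 18.0 to 929 and 13.8 to 1061 CPM. Of 6 nuclear-retained RNAs 5 were positive (median 0.08), with Neat1 at 0.30 (limma adjusted p = 0.210). The part of cell make-up in the values of the respiratory genes was not tested.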

How the data were processed

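Cortical RNA of 10 libraries was sequenced, and the authors aligned the reads with STAR 2.5.1a to Ensembl GRCm38 and counted genes with Subread featureCounts 1.4.6-p5. The kit does not mark strand, and how reads with several matches were counted is not given in the sources used here. The deposited values are CPM (gene counts scaled to a fixed library total), 1 column per library, with 0 value columns unused. They sum to 99.12 to 99.27% of that total in each library, so no TMM factor is in them. The paper counts 4 BMAL1 aKO mice and gives a later age, whereas the labels give 5 libraries and 4 months. All libraries were used.

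From these values, log2(CPM + 0.5) was fitted with limma 3.58.1 (R 4.3.3) using arrayWeights and eBayes with trend, for the 12573 genes with more than 1 CPM in 4 or more libraries (all 94 members among them), with Benjamini-Hochberg adjustment and a threshold of 0.1. Fold changes on this scale understate those of low genes. Single genes had a two-sided exact permutation test. CPM were whole multiples of 1 read in 100% of values (tolerance 0.01 read), which gave the depths, the TMM and median-of-ratios factors and the reads for voomWithQualityWeights. Scripts were tested on simulated data. Copies of mitochondrial genes were found with blastn 2.17.0+ against the GENCODE M21 transcripts of all other genes, on the plus strand. A copy had at least 99% identity over at least 25% of the gene. Genomic sequence was not searched, so copies without an annotation were not found.

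Named members are all mitochondrial messenger and ribosomal RNAs, in each complex the 2 highest by mean CPM, the largest rise and the largest fall, the Sdh genes, the isoform sets of complex IV and subunit c, and the gene of smallest p of each other list. Members, lists and tests were chosen with earlier results of these data known. Nothing in the labels says whether libraries come from separate litters or extractions, and p-values measure the spread between these samples. The ± values are SDs between libraries or SEs of the fit.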

Additional observations from a re-analysis of the deposited data

Results flagged for a closer look

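In 5 of 76 groups of 5 libraries the highest or lowest library lay far from the others, measured as its gap to the nearest library divided by the range of the group (above 0.71). Chance gives about 1 in 20, or 3.8 of 76. In BMAL1 aKO replicate 1, mt-Nd4l at 150.2 CPM (0.78), mt-Atp8 at 39.8 CPM (0.792) and Cox5a at 38.1 CPM (0.937) were high, and Cox8a at 151 CPM (0.713) was low. In BMAL1 aKO replicate 2, Atp5g2 at 10.4 CPM (0.728) was high. The copy Gm10925 was also highest in BMAL1 aKO replicate 1, at 711 CPM against 224 to 536 CPM in Cre-.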

How the results depend on the processing

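Counts of calls over all genes moved most. Against 42, they were 4 without library weights, 68 with TMM scaling, 68 with CPM of the genes that are not mitochondrial-encoded, 22 with sex read from Xist as a covariate, 20 at an adjusted p of 0.05 and 4 without weights and without BMAL1 aKO replicate 3 (chosen after seeing the data). With single libraries left out they ran from 1 to 844, for mitochondrial-encoded members from 0 to 2 and for nuclear-encoded members from 0 to 19, and the other settings gave 0 members. The cause was not tested. The split into 36 higher and 6 lower calls was 60 and 8 with TMM scaling. TMM scaling moved the median of all genes from -0.04 to -0.00. The replicate block gave 7 calls and 0 members. Same-numbered libraries had correlations of -0.625 to 0.364 in their deviations from the group means, highest for replicate 5. Such values also carry differences in library make-up, so they cannot show whether the numbers pair the libraries.

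Of 36 named members, 6 changed sign under some setting, at values near 0. With single libraries left out, Sdha ran from -0.0141 to 0.0597, Uqcrc1 from -0.125 to 0.0219 and Cox5a from -0.271 to 0.0239. Uqcrc1 was 0.0034 with voomWithQualityWeights and 0.0028 with the sex covariate. Cox5a was 0.0255 with voomWithQualityWeights, 0.0090 with the replicate block, and 0.0321 without weights and BMAL1 aKO replicate 3. Atp5b was 0.00069 with TMM scaling and 0.0011 with CPM of the non-mitochondrial genes. Sdhd was -0.0313 without weights and -0.0129 without weights and BMAL1 aKO replicate 3, and Atp5g1 was -0.0120 in the latter. The difference between mitochondrial and nuclear medians ran from 0.017 (sex covariate) to 0.36. The tests edgeR quasi-likelihood and DESeq2 were planned and not run. In the shallowest library (21844770 reads) Ndufb6, Cox6a2 and other members below 10 CPM rest on the fewest reads.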
